A study of Homo sapiens with 24 samples.

Results

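The 8 genes described here, TCP1 (which encodes CCT1), CCT2, CCT3, CCT4, CCT5, CCT6A, CCT7 and CCT8, encode subunits of the cytosolic chaperonin CCT, also called TRiC. They were chosen by name, as the subunits of 1 complex, from the 54583 genes in the count table, and all 8 were among the 12058 genes with at least 1 read in every library. PANC-1 cells, an established line from a human carcinoma of the pancreatic duct, received the solvent DMSO, CID661578 at a dose of 40 µM or cercosporamide at a dose of 5 µM for 6 h, and both compounds were studied as ligands of the kinase MNK2. Each treatment had 4 biological replicates. Total cytosolic RNA and RNA associated with more than 3 ribosomes (polysome RNA) were sequenced for each, giving 24 libraries in 6 groups. A plate here means the total and polysome libraries of 1 treatment and replicate number, 12 in all. The sample titles name no plates. The groups therefore share the cell line and differ by compound and fraction alone, each compound was used at 1 dose and 1 time, and both were compared with the same DMSO libraries. The comparison asked whether mRNAs of 1 complex kept equal total and polysome levels with each compound.

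CCT is a double ring in which each position is held by a different subunit. It binds newly made actin, tubulin and WD40 repeat proteins and folds them in its central chamber by cycles of ATP binding and hydrolysis. Prefoldin hands it unfolded chains, and phosducin-like proteins regulate its work on particular substrates.

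Short stretches of the promoters are shown first, so that letters shared by several members can be seen. RefSeq promoter windows on GRCh38.p14, from 250 bases before to 50 bases after an annotated start, were matched for 7 of the 8 genes, and CCT6A had no entry. Capitals mark the core letters bound by ETS transcription factors, CGGAAG, or CTTCCG on the opposite strand. The TCP1 stretch lies at chr6:159789780-159789809 on the minus strand, the CCT2 stretch at chr12:69585432-69585458 on the plus strand and the CCT7 stretch at chr2:73234233-73234262 on the plus strand, all printed 5′ to 3′.
TCP1: tccaacatccgaCTTCCGttctccgctttc
CCT2: cgtgtggcgtcaCTTCCGgcttccttc
CCT7: accatagagtagCGGAAGtggtccgttctc
The 7 genes have 9 windows, since CCT2 and CCT4 have 2 each. The core occurred in either direction in 6 of the 9 windows (of TCP1, CCT2, CCT5, CCT7 and CCT8), against 19.5% of 35116 windows of the same length. The letters of a heat shock element, GAANNTTC or TTCNNGAA, occurred in 3 of the 9 (of TCP1, CCT2 and CCT4), against 13.5% of all windows. CCAAT or its reverse ATTGG occurred in 4 of the 9, against 34.6%, and TATAAA or TTTATA in none, against 11.5%. These motifs were chosen after the sequences were seen, and a match describes letters, not a bound site.

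The depth was 9268041 to 12184749 reads on genes in 23 libraries and 1592459 in the cercosporamide polysome library of replicate 4. Of the keratin mRNAs of duct epithelium, KRT8 was abundant, at a mean of 5508 reads scaled to library size as CPM in total RNA. KRT18 at 3264 CPM and KRT19 at 1588 CPM were abundant too, and VIM, on the same marker list, stood at 1018 CPM. KRT7 (24.3 CPM), SOX9 (15.6 CPM) and EPCAM (8.36 CPM) were far lower, and the duct chloride channel CFTR had 0 reads. The markers of other pancreatic cells, INS, SST, PRSS1 and PTPRC, also had 0 reads in every library, and that list summed to at most 1.58 CPM.

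In total RNA with DMSO, the 8 mRNAs were not equally abundant. As CPM per kilobase of exon (RPKM), CCT3 was highest at 284 ± 25.4 (SD, n = 4), followed by CCT7 at 204 ± 24.1 and CCT4 at 176 ± 24.0. CCT2 stood at 123 ± 9.61, CCT6A at 107 ± 10.9 and CCT5 at 90.9 ± 32.0 RPKM. TCP1 at 84.0 ± 34.7 and CCT8 at 60.6 ± 9.22 RPKM were lowest, so the levels spanned 4.69-fold. Only 2 pairs of neighbours in this order did not overlap between replicates, CCT3 above CCT7 and CCT4 above CCT2. With the length of the canonical transcript in place of all exons, an alternative chosen after the data were seen, the span was 5.09-fold, with CCT3 and CCT7 again highest and CCT8 lowest and with CCT2 above CCT4. In polysome RNA with DMSO the order differed, with CCT7 at 408 ± 96.1 and CCT3 at 383 ± 125 RPKM, which overlapped. TCP1 had the lowest mean, 78.9 ± 33.9 RPKM, and overlapped with CCT8 at 86.8 ± 20.1 RPKM. By the length of the canonical transcript CCT8 was lowest there, at 156 RPKM, with TCP1 at 164 RPKM.

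On average over the replicates, most of the mRNAs were richer in polysome than in total RNA in cells that received DMSO alone. With DMSO, 7 of 8 members passed the threshold as higher in polysome RNA, an adjusted p below 0.15 with a change over 1.2-fold in the quasi-likelihood test of edgeR with Benjamini-Hochberg adjustment, against 26.4% of all genes tested that were higher and 29.6% that were lower. CCT7 had the highest ratio (log2 0.97, SE 0.18, adjusted p = 0.000128), with polysome over total ratios of 2.27, 1.499, 2.35 and 1.84 on the 4 plates. CCT2 followed at log2 0.66 (SE 0.18, adjusted p = 0.00464) and CCT4 at 0.51 (SE 0.18, adjusted p = 0.0232). TCP1 was the member that did not pass, at log2 -0.10 (95% interval -0.45 to 0.24, adjusted p = 0.655). Its 4 plates had ratios of 0.962, 0.879, 0.950 and 0.939, all below those of every CCT7 plate. The members that passed did not all share a direction on every plate. On the plate of replicate 2, CCT2 (0.98), CCT3 (0.71), CCT4 (0.93), CCT6A (0.86) and CCT8 (0.86) had ratios below 1, and CCT5 had 1.14. CCT3 passed with a 95% interval of -0.03 to 0.76 (adjusted p = 0.124). Without replicate 1, 3 of 8 members passed (CCT2, CCT4 and CCT7), with 22.6% of all genes higher and 26.3% lower. As a share of all reads, the 8 genes took 0.422% ± 0.063 of total RNA and 0.723% ± 0.196 of polysome RNA (SD, n = 4).

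In total RNA, no member passed the threshold with either compound. With CID661578, where 0.315% of all genes rose and 0.133% fell at an adjusted p below 0.15, the log2 changes of the members ran from -0.26 (TCP1) to 0.16 (CCT2), with a median of -0.02. With cercosporamide, where 0.29% rose and 0.0912% fell, they ran from -0.31 (TCP1) to 0.07 (CCT2), with a median of -0.12. At an unadjusted p under 0.05, 0 of 8 members differed with either compound, where 7.17% of all genes did with CID661578 and 11.3% with cercosporamide, and DESeq2 also called 0. The intervals still allowed changes of some size: for TCP1 with cercosporamide the 95% interval ran from -0.73 to 0.11.

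**Figure D1:**
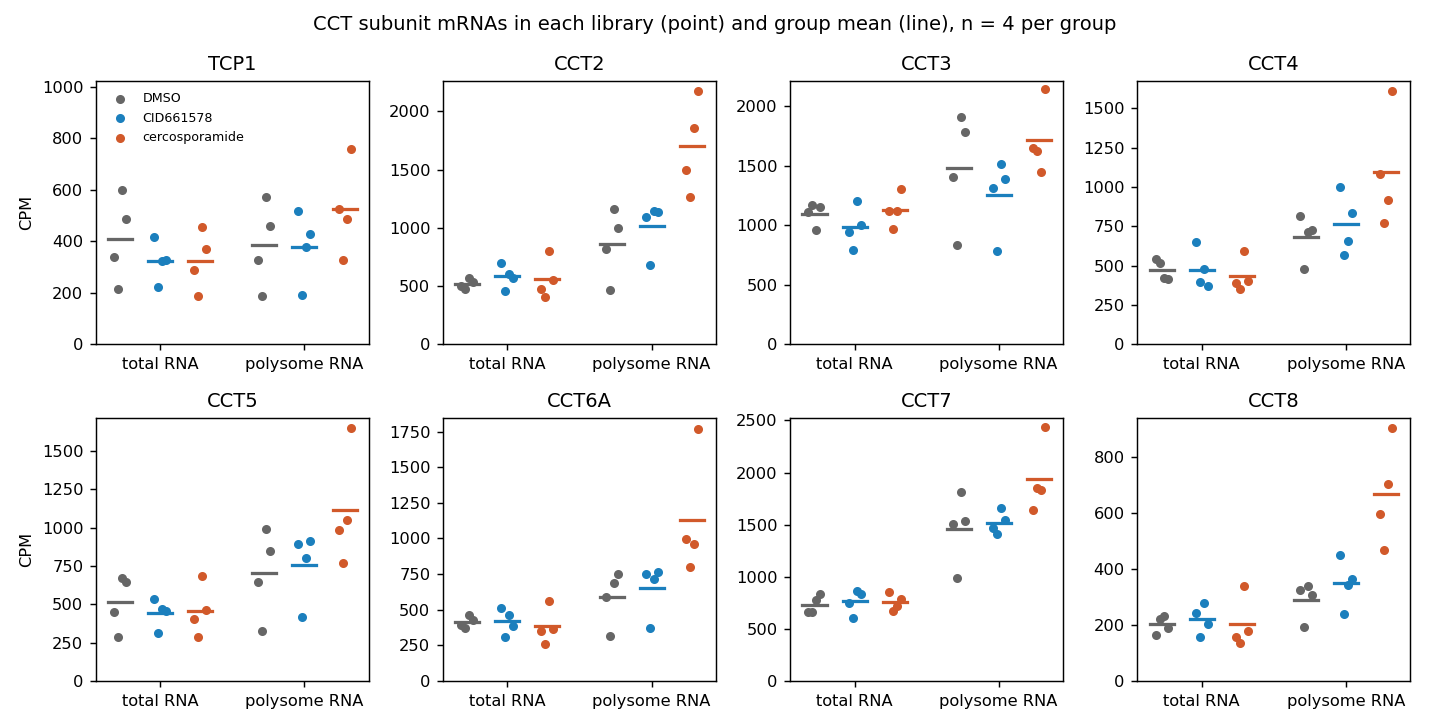
CPM of each CCT subunit mRNA (vertical axes, from 0) in the 24 libraries, grouped as total RNA and polysome RNA and coloured by treatment, where points are libraries and lines are means of 4. The total RNA groups overlap for every subunit, while the cercosporamide polysome points of CCT2, CCT6A and CCT8 all lie above those of DMSO. For all genes tested, the share with no such overlap was not computed.

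In polysome RNA, the compounds gave different counts. With cercosporamide, 7 of 8 members rose (all but CCT3), against 18.3% of all genes tested that rose and 13.8% that fell, and the median log2 change was 0.69 against -0.01 over all genes. CCT8 showed the largest change. Its polysome level was 323, 191, 338 and 308 CPM in DMSO replicates 1 to 4, 451, 240, 344 and 363 CPM with CID661578, and 596, 467, 704 and 901 CPM with cercosporamide. All 4 cercosporamide libraries lay above all 4 DMSO libraries (2.30-fold, SE 0.18 on the log2 scale, adjusted p = 9.1e-05), whereas the CID661578 libraries overlapped with DMSO. CCT2 in polysome RNA had 818, 465, 1164 and 998 CPM with DMSO, and 1499, 1268, 1856 and 2171 CPM with cercosporamide. These groups did not overlap either (log2 change 1.03, SE 0.18, adjusted p = 0.000392). CCT6A had no overlap between these groups either (log2 change 0.96, SE 0.19, adjusted p = 0.00107). The share of all genes without such overlap was not computed. CCT3 differed least, with 1405, 832, 1909 and 1781 CPM with DMSO and 1654, 1623, 1452 and 2144 CPM with cercosporamide (log2 change 0.28, 95% interval -0.13 to 0.70, adjusted p = 0.342). CCT2, CCT4, CCT6A and CCT8 passed in every alternative run. TCP1 and CCT7 did not pass at an adjusted p of 0.05 or without the smallest library. This left 5 members in each of these runs, where 12.2% and 16.9% of all genes rose. After removal of the GC trend of each library, TCP1 was at 0.25 (adjusted p = 0.445) and CCT3 at 0.46 (adjusted p = 0.119, past the threshold). With CID661578, 0 of 8 members passed, where 6.16% of all genes rose and 3.96% fell. The members' log2 changes ran from -0.23 (CCT3) to 0.28 (CCT2), and 0 had an unadjusted p under 0.05, where 19.3% of all genes did.

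Translational efficiency (TE), the change in polysome RNA relative to total RNA of the same plates, rose with cercosporamide for 6 of 8 members, against 15.8% of all genes tested that rose and 12.6% that fell. The median TE change was 0.84 on the log2 scale, against 0.00 over all genes (-0.0005). CCT8 rose most (log2 1.28, SE 0.25, adjusted p = 0.00151), followed by CCT6A (1.11, SE 0.26, adjusted p = 0.00534) and CCT2 (0.97, SE 0.25, adjusted p = 0.0112). CCT5 (0.88), CCT4 (0.81) and TCP1 (0.80) also rose, with adjusted p of 0.0198, 0.0303 and 0.0233. CCT7 (0.37, 95% interval -0.15 to 0.90, adjusted p = 0.337) and CCT3 (0.23, -0.32 to 0.79, adjusted p = 0.605) did not pass, and these intervals do not show that their TE was unaltered. None of the 6 was counted as buffered, meaning changed more in total than in polysome RNA. Without replicate 2, 3 of the 6 passed (TCP1, CCT6A and CCT8), with 8.66% of all genes higher and a member median of 0.73. In a fit that pairs neither the plates nor the replicates CCT8 alone did, with 5.15% of all genes higher and a member median of 0.82.

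With CID661578, 0 of 8 members passed the TE threshold, where 0.00829% of all genes rose and 0.199% fell. The changes ran from -0.05 (CCT3) to 0.31 (CCT5), with a median of 0.17 against 0.03 over all genes, and 0 members had an unadjusted p under 0.05, where 8.87% of all genes did. Each interval covered a range of changes. That of CCT5 ran from -0.21 to 0.83 and that of CCT3 from -0.60 to 0.50.

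**Figure D2:**
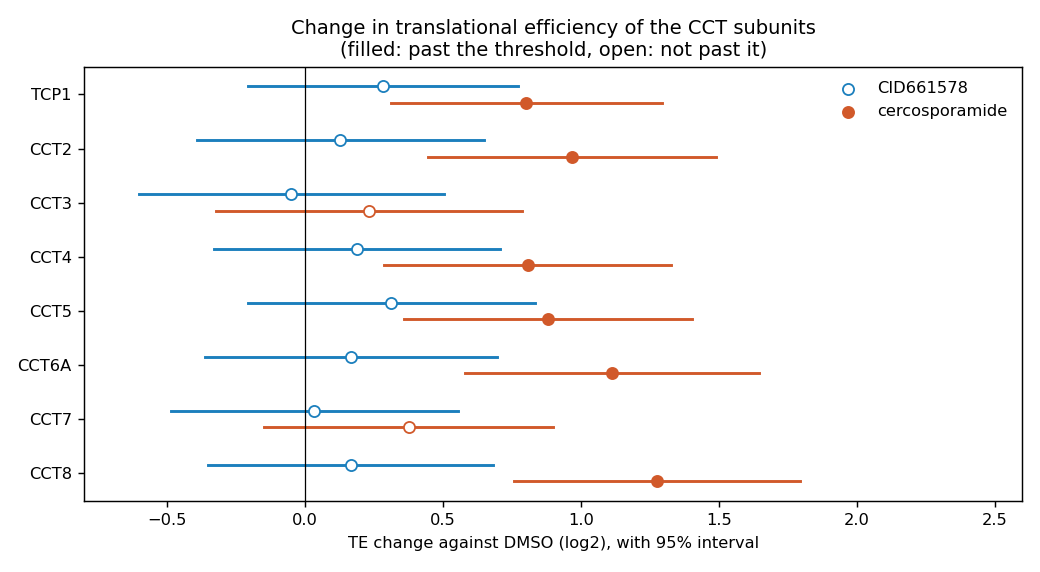
TE change against DMSO on the log2 scale (horizontal axis) for each subunit with CID661578 (blue) and cercosporamide (orange), where bars are 95% intervals and filled points passed the threshold. The 6 filled points lie between 0.80 and 1.28, all with cercosporamide, and every CID661578 interval includes 0.

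The doses were 40 and 5 µM, so the compounds were set side by side at the doses used and not at matched ones, at the same 6 h. In the fit, TE with CID661578 was lower than with cercosporamide for 4 of 8 members (CCT2, CCT4, CCT6A and CCT8), against 7.57% of all genes tested that were lower and 7.93% that were higher. The difference was -1.11 for CCT8 (SE 0.25, adjusted p = 0.0139), -0.95 for CCT6A (SE 0.26, adjusted p = 0.0319), -0.84 for CCT2 (SE 0.25, adjusted p = 0.0483) and -0.62 for CCT4 (SE 0.25, adjusted p = 0.142). For CCT5 it was -0.57 (95% interval -1.09 to -0.05, adjusted p = 0.186) and for TCP1 -0.52 (-1.01 to -0.03, adjusted p = 0.199). CCT7 (-0.34, -0.86 to 0.18) and CCT3 (-0.28, -0.84 to 0.27) had intervals that included 0. Without replicate 2, CCT8 alone passed, with 1.43% of all genes lower and a member median of -0.52 in place of -0.59. Without replicate 1, CCT6A and CCT8 passed, with 2.58% of all genes lower and a median of -0.56.

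The rise with cercosporamide was uneven over the replicates. The median of the 8 TE changes against the DMSO plate of the same number was 0.91 in replicate 1, 1.24 in replicate 2, 0.14 in replicate 3 and 1.17 in replicate 4 (log2). CCT8 rose on all 4 plates, by 0.94, 1.99, 0.53 and 1.65. In replicate 3, CCT3 (-0.62) and CCT4 (-0.12) had negative values, as did CCT7 (-0.25) in replicate 1. The polysome over total ratios of TCP1, CCT2, CCT5 and CCT8 with cercosporamide lay above all DMSO ratios. For TCP1 they were 1.82, 1.74, 1.07 and 2.06, against at most 0.962 with DMSO. How large a share of all genes had ratios without overlap was not computed. With CID661578 the medians were 0.00, 0.55, -0.17 and 0.15, so replicates 1 to 4 did not share a direction. Without the smallest library, that of cercosporamide polysome RNA in replicate 4, the median with cercosporamide was 0.73. The count was again 6, with 15% of all genes higher.

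**Figure D3:**
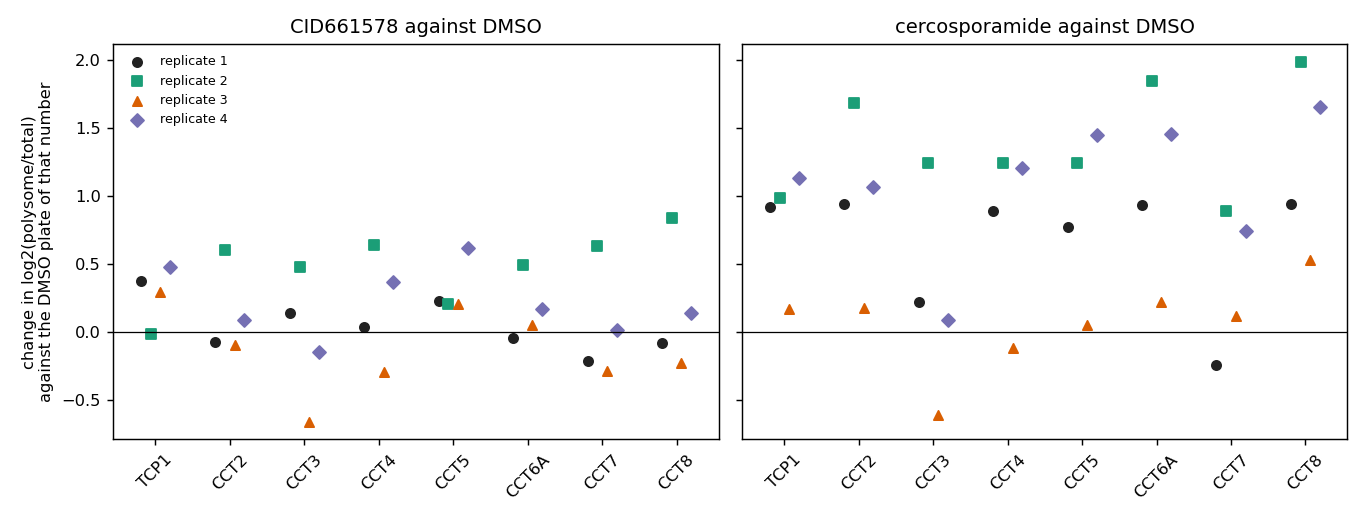
Change in log2(polysome/total) against the DMSO plate of the same replicate number (vertical axis) for each subunit, with CID661578 on the left and cercosporamide on the right, where each symbol is 1 replicate. With cercosporamide, replicate 3 (triangles) is lowest for every subunit but CCT7.

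The proportions among the subunits were compared as each gene's share of the summed RPKM of the 8, as a description. In total RNA, CCT8 held 5.38% ± 0.862 with DMSO and 5.33% ± 1.40 with cercosporamide (SD, n = 4). In polysome RNA it held 5.22% ± 0.496 with DMSO, 5.93% ± 0.615 with CID661578 and 7.68% ± 0.814 with cercosporamide. The 4 cercosporamide shares (6.75 to 8.73%) lay above the 4 DMSO shares (4.78 to 5.65%). CCT3 held 22.4% ± 1.42 of polysome RNA with DMSO, 17.4% ± 2.22 with cercosporamide and 18.3% ± 2.01 with CID661578. A share falls when the other members rise, and the mean polysome level of CCT3 itself was 383 RPKM with DMSO and 445 RPKM with cercosporamide. The 8 genes together took 1.02% ± 0.188 of polysome reads with cercosporamide and 0.764% ± 0.176 with CID661578.

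Base composition moved with the TE change. The canonical transcripts of CCT3 and CCT7, the subunits that did not pass with cercosporamide, have GC contents of 50.6 and 51.6%, and the other 6 lie between 41.5 and 44.5%. Among all genes tested, the median TE change with cercosporamide was 0.34 for transcripts of 41 to 45% GC, of which 24.8% rose, and -0.21 for those of 50 to 52% GC, of which 3.71% rose. After the GC trend of each library was removed, 5 of 8 members passed with cercosporamide (CCT2, CCT5, CCT6A, CCT7 and CCT8), against 9.7% of all genes that rose. The values became 0.83 for CCT8 (adjusted p = 0.0136), 0.61 for CCT7 (adjusted p = 0.0814) and 0.44 for CCT3 (adjusted p = 0.261). TCP1 (0.42, adjusted p = 0.221) and CCT4 (0.48, adjusted p = 0.176) no longer passed. The median was 0.62 with cercosporamide and -0.01 with CID661578, and the part of GC content in the counted values was not tested further. Annotated 5′ UTRs of the 8 mRNAs had GC contents of 60.7% (CCT5) to 69.0% (CCT8).

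**Figure D4:**
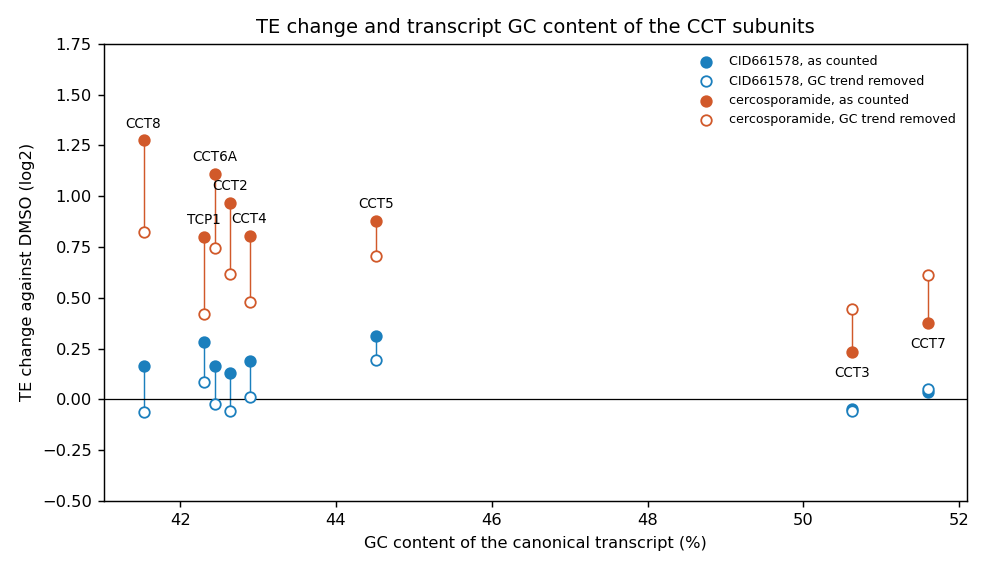
TE change against DMSO on the log2 scale (vertical axis) against GC content of the canonical transcript (horizontal axis, %), for counts as deposited (filled) and after removal of the GC trend (open). The cercosporamide values of the 6 subunits at 41.5 to 44.5% GC moved down and those of CCT3 and CCT7 moved up, and all 8 remained above 0.

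Of 42 tested genes in 6 lists of proteins that work with CCT or resemble it, 7 (16.7%) rose and 3 (7.14%) fell in TE with cercosporamide, beside the 15.8% and 12.6% of all genes. Of the 6 prefoldin subunits, which deliver chains to CCT, 0 passed the TE threshold with cercosporamide, and their median was -0.07. Of 4 tested CCT cofactors, 2 rose, PDCL3 (0.95, adjusted p = 0.0132) and TXNDC9 (0.86, adjusted p = 0.0228), both phosducin-like regulators of the chaperonin. None of the 14 actin and tubulin substrates passed (median 0.05), with ACTB at -0.16 and TUBB at 0.17. Among 8 WD40 substrates, PPP2R2A, a regulatory subunit of protein phosphatase 2A (1.08, adjusted p = 0.0452), and WRAP53, a telomerase holoenzyme protein (0.86, adjusted p = 0.0309), rose. GNB2, a G protein beta subunit, fell by 0.67 and only just passed (adjusted p = 0.145). PPP2R2A and GNB2 were low, at means of 14.1 and 34.3 CPM. Of 6 tubulin cofactors, which act after CCT, TBCE rose (1.05) and TBCA and TBCB fell by 0.77 and 0.73. TBCE and TBCB changed more in total than in polysome RNA and so count as buffered. With cercosporamide, TBCE was at -0.60 in total and 0.48 in polysome RNA, and TBCB at 0.40 and -0.29. Neither passed within a fraction, and TBCE was low, at a mean of 22.0 CPM. Among the other chaperonins, HSPD1, the mitochondrial HSP60, rose (0.96, adjusted p = 0.00956), while its co-chaperonin HSPE1 was at -0.42 (adjusted p = 0.298). BBS10, a chaperonin-like protein of cilia, rose (1.66, adjusted p = 0.00601) at a low mean of 7.08 CPM. With CID661578, 0 genes of these lists passed for TE, where 0.00829% of all genes rose and 0.199% fell. This does not show that their TE was unaltered. With CID661578, GNB2 was at -0.97 in the same edgeR test (unadjusted p = 0.00407, adjusted p = 0.485), further from DMSO than with cercosporamide. PPP2R2A was at 0.76 (adjusted p = 0.548) and TXNDC9 at 0.53 (adjusted p = 0.557).

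**Figure D5:**
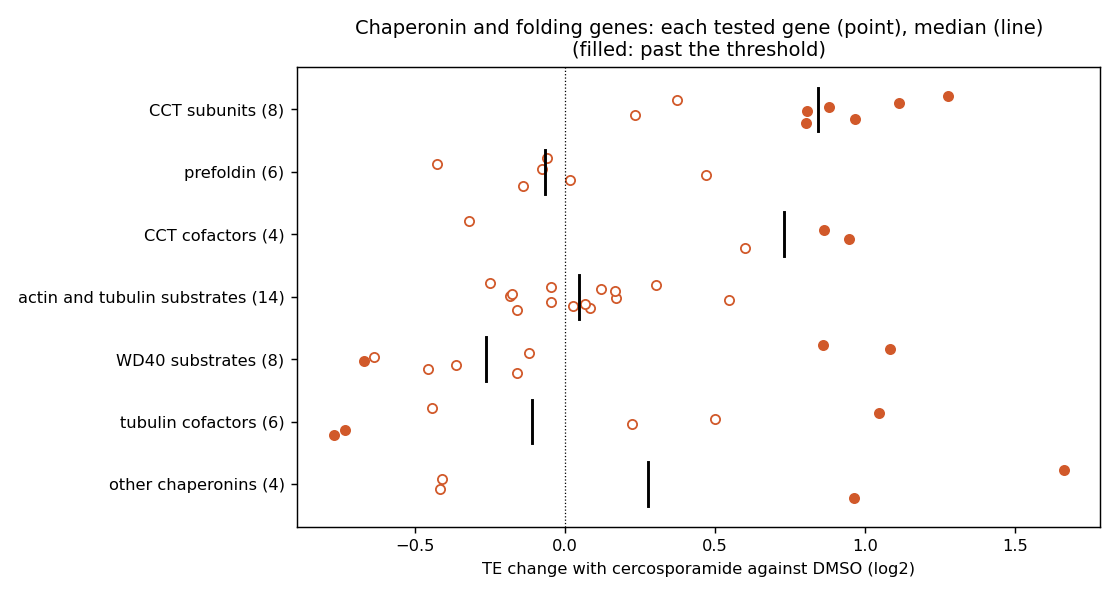
TE change with cercosporamide on the log2 scale (horizontal axis) for each tested gene of 7 lists, with the number of genes in parentheses, where filled points passed the threshold and black lines are medians. The CCT subunits have a median of 0.84, the prefoldin subunits one of -0.07 and the actin and tubulin substrates one of 0.05.

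Across the 24 libraries, the log2 CPM values of the 8 members moved together to differing degrees. The median Pearson r over the 28 pairs was 0.83, from 0.47 for CCT7 with TCP1 to 0.97 for CCT6A with CCT2. These points share the fraction, the replicate and the treatment, so the values are a description. Of 7440 other genes, HSPD1 (r = 0.973), GTPBP4, a GTPase of ribosome assembly (0.972), XRCC6, a subunit of the Ku DNA repair complex (0.971), RTCB, the tRNA ligase (0.965), and SRP54, of the signal recognition particle (0.960), were most like the mean of the 8.

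Pseudogenes named after the members took few reads. The pseudogenes of a parent summed to at most 1.13% of its reads, for CCT6A, with 0.811% for TCP1 and 0.775% for CCT5. Exons of TCP1 overlap ACAT2 and 2 snoRNAs over 606 bases. Exons of CCT5, CCT4 and CCT8 overlap long non-coding RNAs on the other strand over 1734, 456 and 85 bases. These overlaps are those of the GENCODE annotation, whereas reads were counted on RefSeq genes without use of strand. How reads in these stretches were assigned was not tested.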

How the data were processed

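The authors treated PANC-1 cells, made Smart-seq2 libraries, removed rRNA reads with BBDuk, aligned to hg38 with HISAT2 and counted reads on RefSeq genes with featureCounts at default settings, which do not use strand. The deposited values are raw read counts per gene for 24 libraries, with no normalization. Labels gave the groups, and the methods name replicate as batch. Deviations of same-numbered libraries from their group means had r above 0.1 in 13 of 16 comparisons (range -0.02 to 0.55). Only genes with reads in all libraries were tested, as in the study (12058 genes). Counts were scaled by TMM and tested with edgeR 4.0.16 in R 4.3.3 (quasi-likelihood test, Benjamini-Hochberg adjustment over all genes, prior degrees of freedom 18.25). The TE model had terms for plate, for replicate by fraction and for each compound by fraction. Calls needed an adjusted p below 0.15 and, for TE and for polysome against total RNA, a change over 1.2-fold, thresholds the authors gave for another tool, anota2seq, which was not used here. P-values cover the spread between these replicates. In simulated counts for TE with cercosporamide (11818 genes), 72.4% of genes changed by 1 (log2) and 89.7% of those changed by 1.5 were recovered, and 18 of 11623 unchanged genes were called. The simulated spread was smaller than that fitted to the data (common biological coefficient of variation 0.223). It also held no plate noise that differed between the fractions. These rates therefore check the code and can be too favourable for the data. Depth was 1592459 to 12184749 reads, which limits low counts most.

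The members and the gene lists were chosen with earlier results of these data known. The genes named are the 8 subunits, from each related list those past the TE threshold and examples among its most abundant members, and the 5 genes (average log2 CPM of at least 3) most correlated with the members. Symbols were matched to GENCODE v44 (GRCh38), with 39020 of 54583 matched. Transcript GC was known for 96% of genes tested. Annotated 5′ UTRs covered 79.5%, so no check of 5′ UTR GC over all genes was made. Alternatives were other fits without the pairing, other normalizations (DESeq2 1.42.0), filters and thresholds, removal of GC trends, 1 library fewer and each replicate left out.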

Additional observations from a re-analysis of the deposited data

Results flagged for a closer look

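In 72 groups of 4 values (CPM of each subunit in each group, and log2 polysome over total of each subunit with each treatment), 2 held a value far from the other 3, and chance alone marks about 1 group in 20. Both came from the same library, the CID661578 polysome library of replicate 2. CCT2 was at 679 CPM there, against 1092 to 1145 CPM in the other 3 replicates. CCT6A was at 372 CPM, against 712 to 764 CPM. The DMSO polysome library of replicate 2 was also the lowest of its group, with CCT2 at 465 CPM against 818 to 1164 and CCT6A at 317 CPM against 591 to 752. Against that DMSO library the CID661578 values were higher, by 0.54 (CCT2) and 0.23 (CCT6A) on the log2 scale. Without replicate 2, the median TE change of the 8 members with CID661578 was 0.00 (0.0028) in place of 0.17, and 0 of 8 members passed either way.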

How the results depend on the processing

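No member passed in total RNA with either compound, or in polysome RNA or TE with CID661578, in any alternative run. With no replicate block and no plate terms, 1 member passed for TE with cercosporamide (5.15% of all genes higher), 0 for CID661578 against cercosporamide (0.0332% lower), 4 for cercosporamide polysome RNA (10.3% higher) and 3 for DMSO polysome against total RNA (18.9% higher), and the median TE change with cercosporamide was 0.82. With no replicate block but plate terms kept, the counts were 6, 3, 4 and 7. The shares of all genes were then 14.4% higher, 5.6% lower, 10.3% higher and 25.3% higher. At an adjusted p of 0.05, 4 passed in the DMSO comparison (19.5% of all genes higher). With each replicate left out in turn, 3 to 6 passed for TE with cercosporamide (8.66 to 13.8% of all genes higher). For CID661578 against cercosporamide 1 to 6 passed (1.43 to 7.12% lower). The counts were 5 to 7 for cercosporamide polysome RNA (13.2 to 16.2% higher) and 3 to 7 for DMSO (22.1 to 25.8% higher). The median TE change ran from 0.69 to 1.11 with cercosporamide and from 0.00 (0.0028) to 0.24 with CID661578. Signs turned only for values that had not passed. For TE with CID661578, removal of GC trends gave -0.056 (CCT2), -0.025 (CCT6A) and -0.061 (CCT8), and with no replicate block and no plate terms CCT7 was at -0.0032. With 1 replicate left out these TE values ran from -0.030 to 0.20 (CCT2), -0.22 to 0.12 (CCT3), -0.17 to 0.12 (CCT7) and -0.058 to 0.26 (CCT8), and that of CCT3 with cercosporamide from -0.10 to 0.49. In polysome RNA with CID661578 they ran from -0.24 to 0.18 (TCP1) and -0.056 to 0.12 (CCT7). For TE with cercosporamide, ACTB (0.12) and CDC20 (0.13) turned with GC trends removed. TCP1 in polysome against total RNA with DMSO was 0.17 with TMM within each fraction, 0.023 with no filter and 0.010 with GC trends removed. With no filter the median TE change of all genes with cercosporamide was -0.14, and with edgeR's own filter -0.10. The causes were not tested. The smallest library holds 1592459 reads, with 1145 (TCP1) to 3677 (CCT7) reads on each member.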
